A study of Mus musculus with 28 samples.

Results

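The metallothioneins are small, cysteine-rich proteins that bind zinc and copper. The mouse has 4 genes for them, Mt1, Mt2, Mt3 and Mt4, and all 4 were followed here as a family. They are 4 of the 55536 gene identifiers counted and 4 of the 17493 genes that passed the filter on low counts. The family was chosen by its normalised read counts in all 28 libraries, by line, site and gate, which were known beforehand, so its levels and differences are given as a description, with the standard deviation (SD) or standard error (SE) and no test.

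RNA was measured in interfollicular epidermis (IFE), the skin surface between hair follicles, of mice that carry a tamoxifen-inducible Cre (CreER) and the RosatdTomato reporter. The lines were WT(Slc1a3CreER x RosatdTomato) and its Aspm, Dlx1 and K14 counterparts, K14 being keratin 14. Every mouse received tamoxifen on 5 consecutive days (postnatal days 30 to 34) and was harvested 2 weeks later at postnatal day 49, in telogen, when hair follicles rest. Each line and site has a sort of marked cells, named here as Slc1a3+ and so on and called labelled cells, and a sort of total IFE cells. No group went without tamoxifen. The tail groups were Slc1a3+, Aspm+ and Dlx1+ cells and the total of each line (2 libraries each, 12 in all). The back groups were Slc1a3+ and Aspm+ cells and their totals (3 libraries each) and K14+ cells and their total (2 each), 16 in all. The Dlx1 line was sampled in tail only and the K14 line in back only. A CreER line marks cells by its driver at the time of tamoxifen, so labelled cells at harvest may also be descendants of the marked cells.

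Mt1 and Mt2 are expressed in most tissues and are switched on by zinc and other metals through the factor MTF1, which binds metal response elements, and also by glucocorticoids and oxidative stress. Mt3 is known mainly from brain. Mt4 is known from stratified squamous epithelia, where it has been described in differentiating cells. Metallothioneins buffer zinc in the cell, beside transporters that bring zinc into the cytosol (the Slc39 family) or remove it (the Slc30 family).

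The 4 genes lie on chromosome 8 (GRCm38, + strand) in the order Mt4, Mt3, Mt2, Mt1. Mt4 (ENSMUSG00000031757) spans 94137197 to 94139031, Mt3 (ENSMUSG00000031760) 94152607 to 94154146, Mt2 (ENSMUSG00000031762) 94172664 to 94173568 and Mt1 (ENSMUSG00000031765) 94179082 to 94180327. The gaps between neighbours are 13576, 18518 and 5514 bases. The promoter windows of the 3 members that shared a pattern of levels are shown because they differ in their matches to the metal response element core, TGCACNC or TGCGCNC, searched on both strands. The windows hold 250 bases before and 50 after the RefSeq start (GRCm38.p6, + strand, 5′ to 3′), with matches in capitals; a match on the other strand reads as its reverse complement.
Mt1 (chr8:94178839-94179138): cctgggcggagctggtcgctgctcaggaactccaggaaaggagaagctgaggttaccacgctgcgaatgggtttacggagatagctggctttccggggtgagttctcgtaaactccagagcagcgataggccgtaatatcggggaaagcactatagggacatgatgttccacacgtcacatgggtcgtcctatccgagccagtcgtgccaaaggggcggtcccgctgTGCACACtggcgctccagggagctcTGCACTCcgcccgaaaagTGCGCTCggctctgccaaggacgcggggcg
Mt2 (chr8:94172368-94172667): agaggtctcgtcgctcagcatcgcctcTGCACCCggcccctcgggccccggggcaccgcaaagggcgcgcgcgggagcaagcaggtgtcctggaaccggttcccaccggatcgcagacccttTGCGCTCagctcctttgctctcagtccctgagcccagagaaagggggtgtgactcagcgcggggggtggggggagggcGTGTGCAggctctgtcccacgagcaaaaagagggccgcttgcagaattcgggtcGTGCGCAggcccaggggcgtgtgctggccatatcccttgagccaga
Mt4 (chr8:94136954-94137253): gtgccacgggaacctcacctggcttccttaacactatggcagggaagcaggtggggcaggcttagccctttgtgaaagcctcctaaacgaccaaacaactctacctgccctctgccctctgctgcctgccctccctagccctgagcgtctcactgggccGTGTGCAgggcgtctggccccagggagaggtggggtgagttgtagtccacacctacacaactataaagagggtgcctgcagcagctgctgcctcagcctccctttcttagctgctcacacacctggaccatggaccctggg
Mt1 held 3 matches, all close to the RefSeq start, and 1.99% of 32544 windows of this length held at least 3. Mt2 held 4, spread over the window, as did or exceeded 0.522% of windows. Mt4 and Mt3 held 1 each, and 25.9% of windows held at least 1. Beside these, the letters TATAAA were present in the Mt4 window and not in the other 3 (13.6% of windows held them), and the antioxidant response element core TGACNNNGC was present in that of Mt2 (12.4%). These are letters in a window and not shown to be used sites. Whether the RefSeq starts are those used in these cells was not tested, and sites outside the windows were not searched.

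Library totals ran from 7738262 to 37670589 counts (median 20193387). Levels are in CPM, read counts over the library's total count after TMM scaling, and every difference is on the log2 scale. The back Slc1a3 total replicate 4 stood apart from the other libraries. Its total was the lowest of the 28, it had counts for 14436 genes, and 0.208% of its counts were mitochondrial, so results that rest on it are given with and without it. Basal keratinocyte markers summed to 65311 to 118141 CPM in tail and 54027 to 85938 CPM in back, and all 6 were detected in every group. Whether each library is a separate animal is not given, and a p-value here covers no more than the variation among libraries. In bulk RNA, fewer cells of a type and less RNA per cell cannot be told apart.

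Mt4 was the member with the widest difference between the sites. In total IFE it reached 1041 and 823 CPM in tail of the Slc1a3 line and 740 and 819 CPM in tail of the Aspm line, against 64.7, 58.8 and 30.1 CPM and 114, 64.0 and 61.8 CPM in back of the same lines. Every tail total was far above every back total. The difference was 3.73 (SE 0.21), or 13.3-fold, and 3.60 without the library that stood apart. In Slc1a3+ cells Mt4 measured 1761 and 1440 CPM in tail, against 98.1, 61.7 and 72.5 CPM in back, a difference of 4.37 (SE 0.30), or 20.7-fold. In Aspm+ cells it measured 910 and 1088 CPM in tail, against 107, 80.7 and 82.2 CPM in back, a difference of 3.47 (SE 0.29), or 11.1-fold. Of the 17493 genes, 382 (2.18%) were higher in tail by more than 3 in each of these 3 comparisons, and Mt4 ranked 511, 379 and 641 from the top in total IFE, Slc1a3+ and Aspm+ cells.

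Mt1 was also higher in tail, by less. In total IFE it measured 775 and 717 CPM (Slc1a3 line) and 488 and 504 CPM (Aspm line) in tail, against 187, 225 and 177 CPM and 246, 242 and 292 CPM in back. All 4 tail totals lay above all 6 back totals, by a difference of 1.43 (SE 0.14), or 2.69-fold, and of 1.39 without the library that stood apart. Slc1a3+ cells held 1016 and 1008 CPM in tail, against 308, 199 and 239 CPM in back (2.02, SE 0.19). Aspm+ cells held 476 and 536 CPM in tail, against 251, 255 and 309 CPM in back (0.90, SE 0.19). Neither labelled population overlapped between the sites, and whether the site difference is wider in Slc1a3+ than in Aspm+ cells was not tested.

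Mt2 followed Mt1 at a lower level. Its tail totals were 244 and 212 CPM (Slc1a3 line) and 181 and 191 CPM (Aspm line), against 66.1, 97.4 and 29.1 CPM and 102, 77.4 and 106 CPM in back. The difference was 1.39 (SE 0.21), and 1.22 without the library that stood apart, which held the 29.1 CPM. In Slc1a3+ cells Mt2 measured 357 and 306 CPM in tail, against 104, 87.6 and 72.6 CPM in back (1.91, SE 0.30), and in Aspm+ cells 172 and 207 CPM in tail, against 82.9, 89.4 and 113 CPM in back (0.99, SE 0.30). No tail range met a back range in these 3 comparisons. The counts of Mt2 are less certain than those of the other members, since Gm45774 overlaps it on the opposite strand, the libraries were not strand-specific, and 56.8% of the 482 stretches of 30 bases in its transcript also occur in transcripts of Gm45774 or Pip5k1a. Gm45774 itself was listed at 0.757 to 4.26 CPM in tail and 0 to 2.94 CPM in back, far below Mt2. How reads lying on both genes were counted is not given, so its low level does not show how many reads Mt2 lost.

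Because the levels entered the choice of genes, the number of members apart between the sites is no result. The share of all genes whose tail libraries lay wholly above the back libraries was 15.6% in total IFE, 31.4% in Slc1a3+ cells and 26.2% in Aspm+ cells. Scaling by library totals alone lowered every gene by 0.20 in tail Slc1a3+ against back Slc1a3+ cells, and by 0.06 in total IFE. The differences of Mt1, Mt2 and Mt4 stayed positive in all 3 comparisons under each alternative run.

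**Figure D1:**
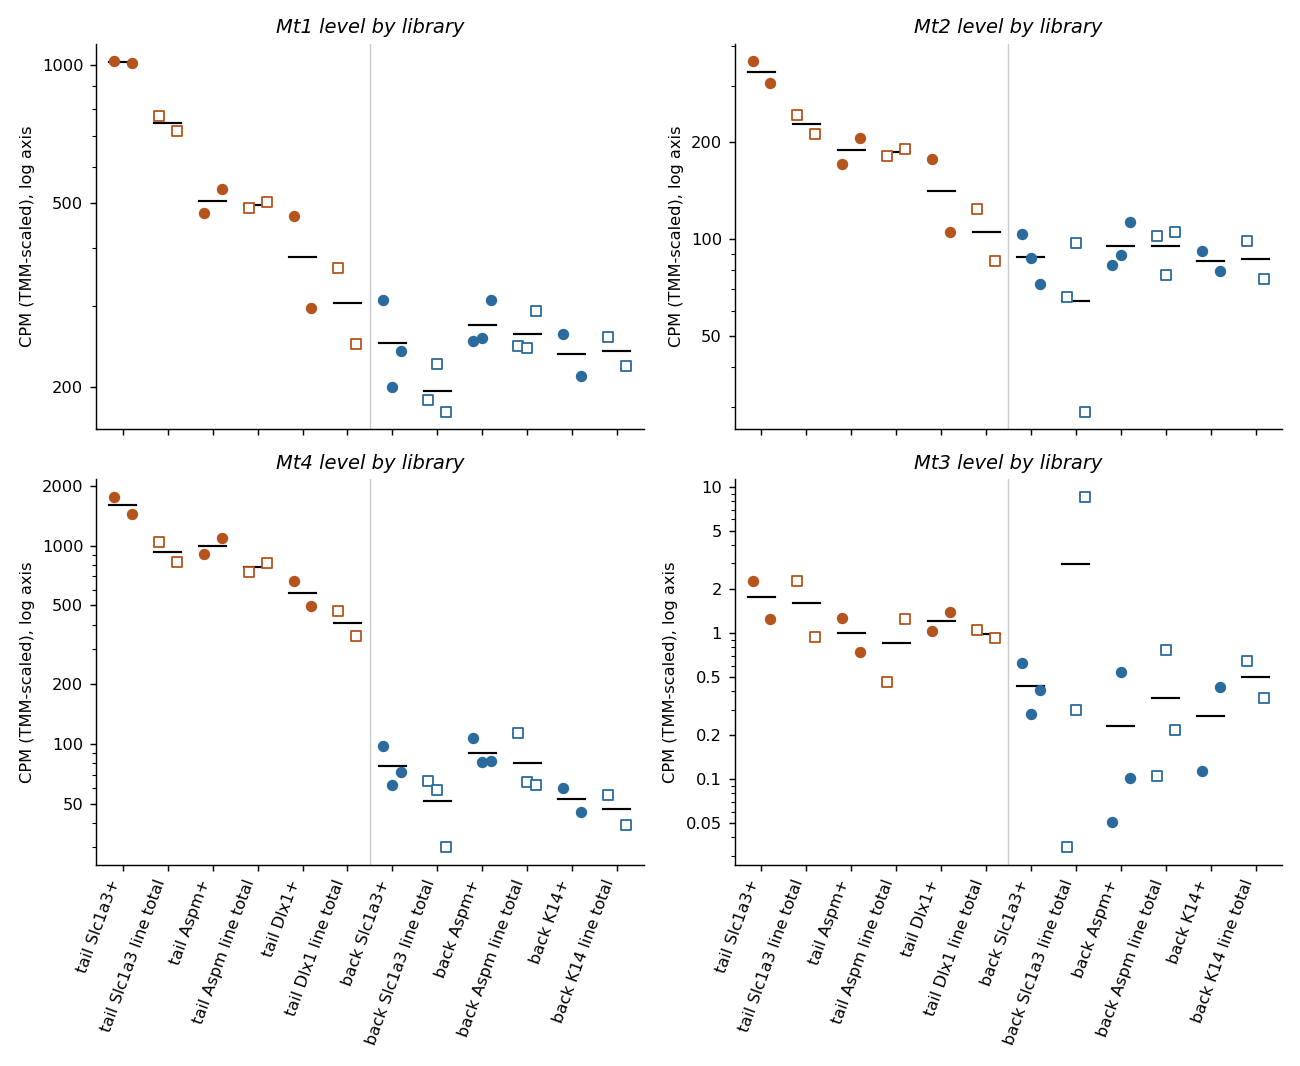
Level of each metallothionein gene in every library (CPM on a log axis), tail groups in orange on the left and back groups in blue on the right, with filled circles for labelled cells, open squares for totals and a bar at the group mean. Mt4 lies between 348 and 1761 CPM in tail and between 30.1 and 114 CPM in back, and Mt3 is at most 2.27 CPM in all libraries but 1.

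Mt3 was barely detected. It held 11 to 46 counts per tail library (0.467 to 2.27 CPM) and 1 to 19 counts per back library (0.0343 to 0.764 CPM), except the library that stood apart, with 67 counts and 8.55 CPM. That single library set the mean of its group, 2.96 CPM, which was 0.167 CPM without it. Tail and back Slc1a3+ cells held 2.27 and 1.25 CPM against 0.628, 0.280 and 0.405 CPM, and tail and back Aspm+ cells 1.27 and 0.746 CPM against 0.0509, 0.541 and 0.102 CPM. Tail lay above back in both labelled populations, and the totals overlapped. At these counts the SE of any Mt3 difference was 0.85 or more.

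The family's make-up differed by site. Mt4 supplied 46.9% to 59.4% of the counts of the 4 genes in tail libraries (median 52.4%), against 11.6% to 24.7% in back libraries (median 16.5%). Per base of transcript (398 bases for Mt4, 549 for Mt1), the level of Mt4 was 1.58 to 2.80 times that of Mt1 in tail, against 0.235 to 0.639 times in back, so their order was reversed between the sites in all 28 libraries. The ratio of Mt1 to Mt2 moved little, at 2.59 to 3.39 in tail and 2.28 to 3.29 in back, apart from 6.07 in the library that stood apart. Its size carries the uncertainty of the Mt2 counts given above. The 4 genes together took 0.0748% to 0.283% of tail library counts, against 0.0247% to 0.0526% of back library counts (0.0325% to 0.0526% without the library that stood apart). Markers of other cells differed between the sites too. Fibroblast markers (6 genes) summed to 21.9 to 39.2 CPM in tail, against 0.968 to 14.7 CPM in back, and Langerhans cell markers (5 genes) to 3.83 to 34.6 CPM, against 16.0 to 197 CPM. Suprabasal keratinocytes are the cells in which Mt4 is known, and the sum of their markers (7 genes) overlapped between the sites, at 6634 to 12376 CPM in tail and 7117 to 14741 CPM in back. Single markers differed in total IFE by edgeR's test. Krtdap (2.89, adjusted p = 4.47e-12) and Lor (1.69, adjusted p = 0.0120) were higher in tail and Krt1 was lower (-1.07, adjusted p = 2.82e-05), while Flg was at 0 in the tail and back Slc1a3 line totals. The part of these cells in the site difference was not tested.

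**Figure D2:**
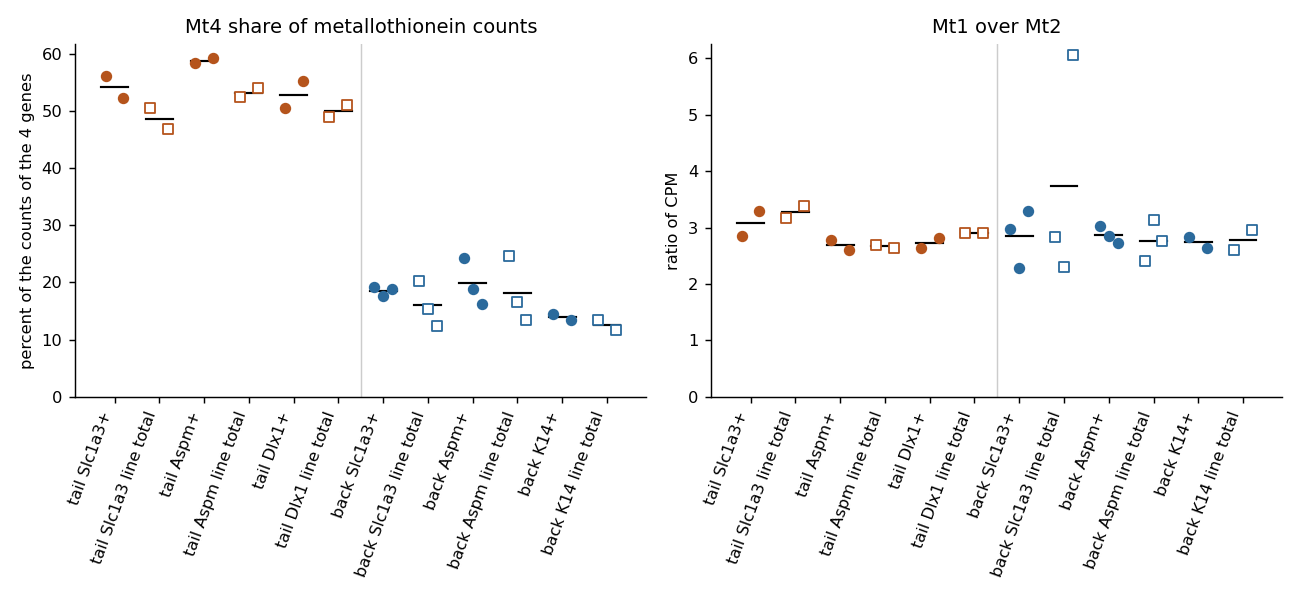
Left, the percentage of the counts of the 4 metallothionein genes that came from Mt4 in each library; right, the ratio of Mt1 to Mt2 CPM; tail groups in orange and back groups in blue, circles for labelled cells, squares for totals, bars for group means. The Mt4 share lies above 46% in every tail library and below 25% in every back library, while the Mt1 to Mt2 ratio of all libraries but 1 lies between 2.28 and 3.39.

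Within tail skin the lines formed a series. By group mean, Mt1 was 1012 ± 5.97 CPM in Slc1a3+ cells, 506 ± 42.6 CPM in Aspm+ cells and 382 ± 122 CPM in Dlx1+ cells (SD, n = 2 each). Mt4 was 1601 ± 227 CPM in Slc1a3+ cells, 999 ± 126 CPM in Aspm+ cells and 579 ± 117 CPM in Dlx1+ cells (SD, n = 2 each). The Dlx1+ libraries held 468 and 296 CPM of Mt1, 178 and 105 CPM of Mt2, and 662 and 497 CPM of Mt4. Slc1a3+ cells were above Dlx1+ cells without overlap for Mt1 (1.40, SE 0.22), Mt2 (1.23, SE 0.33) and Mt4 (1.47, SE 0.31). Slc1a3+ cells were also above Aspm+ cells for all 3 genes without overlap, by 0.81 (SE 0.33) for Mt2 and 0.68 (SE 0.31) for Mt4. Aspm+ cells exceeded Dlx1+ cells by 0.79 (SE 0.31) for Mt4 and 0.40 (SE 0.22) for Mt1 with separate ranges, and by 0.42 (SE 0.33) for Mt2 with overlapping ones. With 2 libraries a group, 25.2% of all genes were higher without overlap in Slc1a3+ than in Dlx1+ cells, 23.0% in Slc1a3+ than in Aspm+ cells and 18.5% in Aspm+ than in Dlx1+ cells. Scaling by library totals lowers every gene by 0.19 in the first of these and by 0.11 in the second.

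The same order was present in the totals of the lines. Dlx1 line totals in tail held 361 and 248 CPM of Mt1, 124 and 85.5 CPM of Mt2 and 467 and 348 CPM of Mt4. Slc1a3 line totals were above them by 1.29 (SE 0.22), 1.12 (SE 0.33) and 1.19 (SE 0.31), and Aspm line totals were above them by 0.70 (SE 0.22), 0.83 (SE 0.33) and 0.94 (SE 0.31), all without overlap (24.0% and 18.0% of all genes). Slc1a3 line totals were above Aspm line totals by 0.59 (SE 0.22), 0.29 (SE 0.33) and 0.26 (SE 0.31), also without overlap (21.8% of all genes). These totals are sorts of total IFE and not of marked cells, so the order was not confined to labelled cells. Mouse line, animals and any batch cannot be told apart as the source of the order in the totals, which was not tested. Bulge and germ markers of the hair follicle (7 genes) summed to 144 to 187 CPM in tail Slc1a3+ cells, 491 to 671 CPM in Aspm+ cells and 925 to 987 CPM in Dlx1+ cells, the reverse of the metallothionein order. In the totals they did not follow that order, at 918 to 945 CPM in the Slc1a3 line, 816 to 942 CPM in the Aspm line and 1732 to 1754 CPM in the Dlx1 line. Basal markers summed to 113977 to 118141 CPM in Slc1a3+ cells, 88264 to 90643 CPM in Aspm+ cells and 75881 to 86861 CPM in Dlx1+ cells. This is the metallothionein order, and the totals of these lines kept it, at 97430 to 98035, 77654 to 82974 and 65311 to 73049 CPM. Langerhans cell markers (5 genes) ran in the metallothionein order by group mean, at a mean of 28.4 CPM in Slc1a3+ cells, 23.0 to 27.0 CPM in Aspm+ cells and a mean of 7.42 CPM in Dlx1+ cells, with means of 30.8, 11.6 and 4.55 CPM in the totals of these lines. Melanocyte markers (5 genes) ran in that order too, with means of 26.8, 20.1 and 11.0 CPM in the labelled cells and 19.7, 16.1 and 7.79 CPM in the totals. So did the means of fibroblast markers (6 genes), at 38.8, 25.6 and 23.0 CPM, then 32.2, 28.5 and 24.3 CPM. Suprabasal and T cell markers had their highest mean in the Aspm line in both sorts. Dividing cell markers ran in the reverse order by mean in both sorts. The part of these markers in the result was not tested.

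Back lines differed less. Mt1 spanned 177 to 309 CPM and Mt2 29.1 to 113 CPM over the 16 back libraries, and every neighbour in the order of group means overlapped the next for both genes. Away from neighbours, Mt1 of the Slc1a3 line totals was below that of the Aspm line totals without overlap (-0.41, SE 0.18, and -0.34 without the library that stood apart), as were 9.08% of all genes. Mt4 was lower in K14+ cells, at 59.8 and 45.1 CPM, than in Slc1a3+ and Aspm+ cells, at 61.7 to 107 CPM. The ranges were apart by a narrow margin, with a difference of -0.67 (SE 0.26); 7.46% of genes were lower without overlap there. The K14 line totals, at 54.9 and 39.0 CPM, overlapped the other totals (-0.45, SE 0.26) only through the library that stood apart, at 30.1 CPM. The remaining Slc1a3 and Aspm line totals ran from 58.8 to 114 CPM, above both K14 line totals. The Dlx1 line was the tail line nearest to back. In its replicate 2, Dlx1+ cells and their total held 296 and 248 CPM of Mt1 and 105 and 85.5 CPM of Mt2, all inside the back ranges, while their Mt4 was above every back library.

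For Mt1, Mt2 and Mt4, labelled cells differed from their total by no more than 0.78 in any of the 6 comparisons. Mt4 was higher in the labelled cells in all 6 tail pairs of the same line and replicate number, by 0.30 to 0.81 per pair, a pattern that 5.72% of all genes showed, and in 7 of 8 back pairs. In tail the differences were 0.78 (SE 0.31) in the Slc1a3 line, 0.36 (SE 0.31) in the Aspm line and 0.51 (SE 0.31) in the Dlx1 line, and the labelled libraries were above the totals without overlap in each line (15.4%, 16.9% and 12.7% of all genes). In back they were 0.58 (SE 0.26), 0.17 (SE 0.25) and 0.16 (SE 0.31) in the Slc1a3, Aspm and K14 lines, with overlap in each. The back Slc1a3 value was 0.33 without the library that stood apart.

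Mt1 and Mt2 were higher in labelled cells of some lines and near equal in others. Tail Slc1a3+ cells exceeded their total by 0.44 (SE 0.21) for Mt1 and 0.54 (SE 0.33) for Mt2, without overlap. In the tail Dlx1 line the differences were 0.33 (SE 0.21) and 0.43 (SE 0.33) with overlap, and the Mt1 value was -0.037 without tail Dlx1+ replicate 1. Tail Aspm+ cells differed from their total by 0.03 (SE 0.21) and 0.02 (SE 0.33), also with overlap. In back the differences were 0.34 and 0.44 in the Slc1a3 line (0.27 and 0.11 without the library that stood apart), 0.06 and 0.00 in the Aspm line, and -0.02 and -0.02 in the K14 line. In tail, suprabasal, basal and melanocyte markers were all higher in the labelled cells than in their total, without overlap. Suprabasal markers summed to 10549 to 10621 CPM in Slc1a3+ cells against 7756 to 8169 CPM in their total. The values were 10466 to 12376 against 8589 to 9415 CPM for the Aspm line. For the Dlx1 line they were 8578 to 9096 against 6634 to 7103 CPM. Basal markers were at 113977 to 118141 against 97430 to 98035 CPM in the Slc1a3 line. Aspm and Dlx1 line values were 88264 to 90643 against 77654 to 82974 CPM, and 75881 to 86861 against 65311 to 73049 CPM. Melanocyte means were 26.8 against 19.7, 20.1 against 16.1 and 11.0 against 7.79 CPM in the Slc1a3, Aspm and Dlx1 lines. Langerhans cell markers were higher without overlap in the Aspm line, at 23.0 to 27.0 against 9.93 to 13.2 CPM. The same held in the Dlx1 line, at 6.20 to 8.64 against 3.83 to 5.27 CPM, while the Slc1a3 line overlapped. Bulge and germ markers went the other way, at 144 to 187 CPM in Slc1a3+ cells against 918 to 945 CPM in their total. The part of these markers in the Mt4 difference was not tested.

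**Figure D3:**
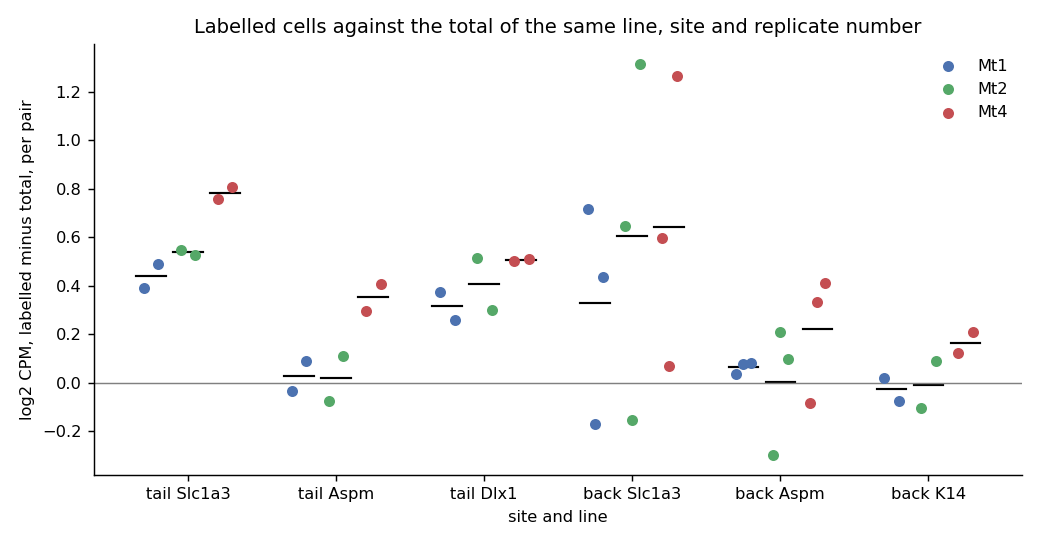
Difference in log2 CPM between labelled cells and the total of the same line, site and replicate number, one point per pair, for Mt1, Mt2 and Mt4, with bars at the mean of the pairs. Every tail point of Mt4 lies above 0, between 0.30 and 0.81, whereas Mt1 and Mt2 have points below 0 in the tail Aspm line and in back, and Mt4 has 1 such point, in the back Aspm line.

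Between tail and back total IFE, 46.2% of all genes passed edgeR's quasi-likelihood test (22.5% higher and 23.7% lower in tail). Of 13 zinc importers tested, 5 rose and 1 fell. The share called in either direction was that of all genes, whose calls were split near evenly between higher and lower. The list median was 0.42 against -0.03 for all genes. Slc39a6, which brings zinc in across the plasma membrane, averaged 210 CPM in tail against 87.0 CPM in back (SD 39.4 and 13.2, n = 4 and 6, adjusted p = 5.9e-09). Slc39a10, of the same branch, averaged 80.4 against 36.5 CPM (1.11, SE 0.18, adjusted p = 2.06e-05), and Slc39a11 and Slc39a1 rose by 1.10 and 0.55. Slc39a8, an importer of zinc and manganese, fell to 10.8 CPM in tail against 36.6 CPM in back (-1.76, SE 0.22, adjusted p = 7.25e-07).

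Of 7 zinc exporters tested, 3 rose and 2 fell. Slc30a1, the plasma membrane exporter that is itself a target of MTF1, rose by 2.11 (SE 0.67, adjusted p = 0.0128) at a low level, 1.23 CPM in tail against 0.266 CPM in back; the call was lost when tail Slc1a3 total replicate 1 or tail Aspm total replicate 2 was left out. Slc30a6 and Slc30a5, of the secretory pathway, rose by 0.60 and 0.48, and Slc30a2 fell by 2.04 to 1.38 CPM in tail against 5.34 CPM in back. Mtf1 itself fell, to 20.7 ± 3.24 CPM (SD, n = 4) in tail against 30.3 ± 4.76 CPM (n = 6) in back (-0.54, SE 0.14, adjusted p = 0.00301). Its difference did not pass in Slc1a3+ cells (-0.45, adjusted p = 0.0748) or Aspm+ cells (-0.22, adjusted p = 0.433). Of the 6 regulators 2 rose in total IFE, Usf2 and Keap1, and 2 fell, Sp1 and Mtf1.

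Of 15 copper genes tested, 4 rose and 3 fell, and the list median was -0.29. Sod1, the copper and zinc superoxide dismutase, averaged 157 CPM in tail against 82.1 CPM in back (0.92, adjusted p = 6.51e-05). Slc31a2, a transporter of the copper pathway, fell to 37.7 CPM against 154 CPM in back (-2.02, adjusted p = 1.32e-12), and Cox17, which carries copper to cytochrome oxidase, fell by 1.23. In the labelled populations, 40.6% of all genes passed for Slc1a3+ and 27.2% for Aspm+ cells. Zinc importers there counted 5 higher and 1 lower in Slc1a3+ cells and 6 higher and 1 lower in Aspm+ cells, exporters 1 and 2, then 1 and 1, copper genes 3 and 5, then 2 and 2, and regulators 3 and 1, then 1 and 1. In total IFE the copper genes passed at a share near that of all genes.

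The oxidative stress list, genes of the NRF2 response to which Mt1 and Mt2 are also known to belong, held the most calls for its size in total IFE. All 12 genes passed in total IFE, 11 higher and 1 lower in tail, with a median of 1.11, although the lower call was unstable. The lists were chosen with earlier results of these data known, so list counts and their p-values, here and in the other comparisons, are descriptions. Txn1, thioredoxin, averaged 763 CPM in tail against 134 CPM in back (2.50, SE 0.14, adjusted p = 1.07e-12). Srxn1 (1.98), Nqo1 (1.57), Gclm (1.19) and G6pdx (1.03), which serve peroxiredoxin repair, quinone reduction, glutathione synthesis and NADPH supply, were also higher with no overlap. The gene that fell was Txnrd1, thioredoxin reductase, named after its value was seen (-0.32, SE 0.13, adjusted p = 0.0434), and that call was lost in 17 of the 28 fits that left out 1 library and in 3 of the 5 other settings. Txnrd1 also fell in Slc1a3+ cells (-1.08), without overlap. That call held in all 10 alternatives, which were other settings or fits without 1 of the compared libraries. In Slc1a3+ cells 7 of the 12 rose and 1 fell, and in Aspm+ cells 6 rose and none fell, where 40.6% and 27.2% of all genes passed. Nfe2l2, which encodes NRF2, did not pass (0.07, adjusted p = 0.644).

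Glucocorticoids and cell stress are also known inducers of Mt1 and Mt2. Of 10 glucocorticoid response genes, 1 rose and 3 fell in total IFE, a share in either direction below the 46.2% of all genes. Dusp1, a phosphatase gene, was down by 1.90 and Klf9, a transcription factor gene, was down by 1.36 in tail. Of 17 dissociation and heat stress genes, 2 rose and 6 fell, a share in either direction near that of all genes. Hsph1, a heat shock protein gene, was lower by 2.02 and Ier3, an immediate early gene, higher by 2.88. In Slc1a3+ cells 1 glucocorticoid response gene rose and 4 fell, and 2 dissociation and heat stress genes rose and 8 fell, the median of the second list being -1.17 against -0.09 for all genes. In Aspm+ cells 0 and 4, then 3 and 3, did so. Of all genes, 40.6% passed in either direction in Slc1a3+ cells and 27.2% in Aspm+ cells. Any difference in dissociation between the sites cannot be told apart from the sites.

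**Figure D4:**
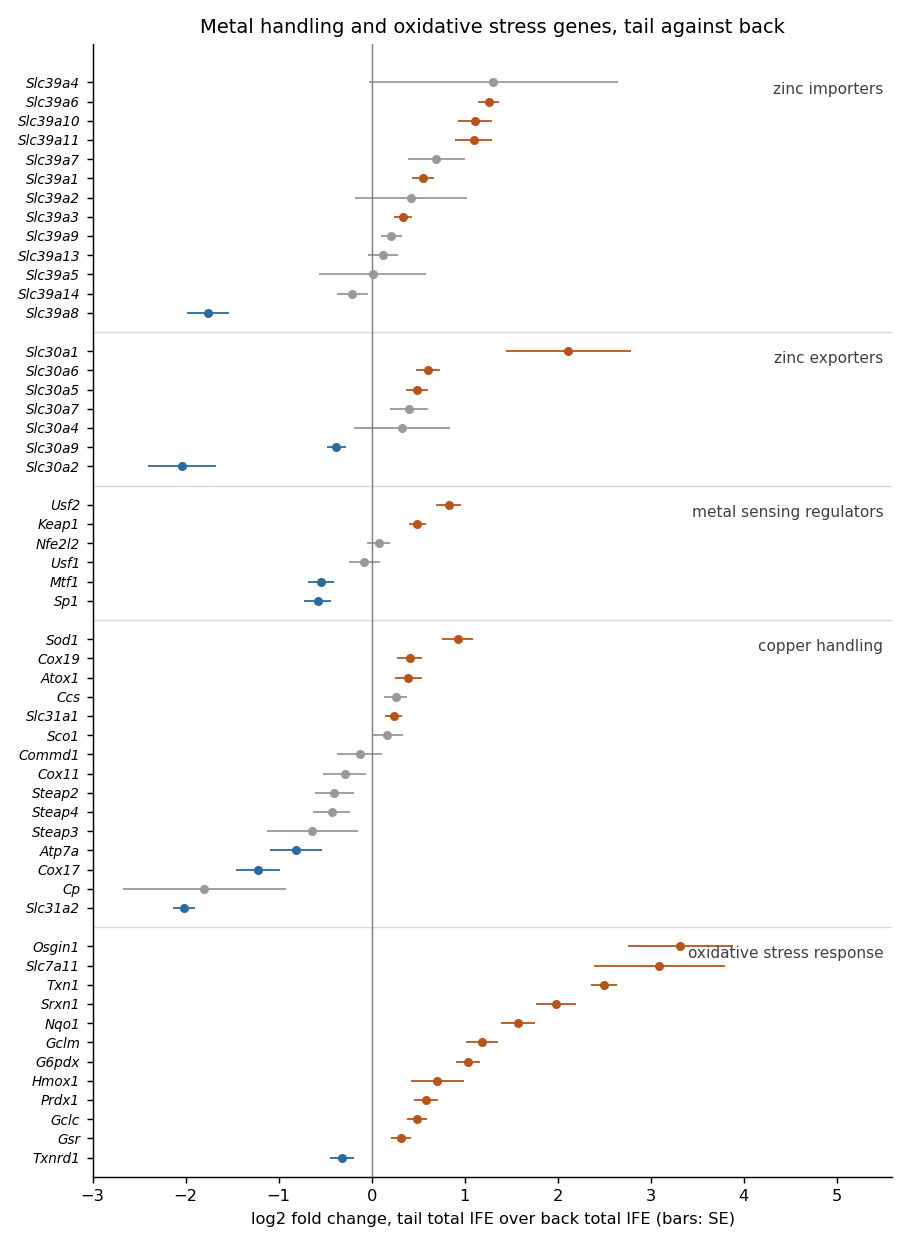
Difference in log2 between tail and back total IFE, with SE bars, for each tested gene of 5 lists; orange and blue points passed the test (higher and lower in tail) and grey points did not. Oxidative stress genes lie to the right, with Txnrd1 as the exception, while the zinc and copper lists lie on both sides of 0.

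Between labelled cells and their totals, 1 of the 80 list genes passed in 1 of 6 comparisons. It was Sgk1, a glucocorticoid-regulated kinase, at 47.2 CPM in tail Slc1a3+ cells against 111 CPM in their total (-1.23, SE 0.29, adjusted p = 0.0490), where 0.514% of all genes passed. The call was lost in 18 of the 28 fits that left out 1 library, including each of the 4 libraries compared, with an adjusted p of up to 0.374. In the other 5 comparisons 0 list genes passed by edgeR, 7 had an unadjusted p under 0.05, and 0 passed by DESeq2. All genes passed there at 0.109% (back Slc1a3), 0.0% (back Aspm and tail Dlx1) and 0.00572% (back K14 and tail Aspm). With the replicate block, a term for the pairs, 5 calls were made, and they were Sgk1, Dusp1, Socs3 and Slc39a6 in tail Slc1a3+ cells and Sgk1 in tail Dlx1+ cells, of which Slc39a6 was higher in the labelled cells (0.45, adjusted p = 0.0218).

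Between tail lines, calls gathered in Slc1a3+ against Dlx1+ cells, where 13 of 80 list genes passed, against 5.47% of all genes. The split was 6 higher and 7 lower, and 2 higher and 12 lower with scaling by library totals. Atox1, a copper chaperone, averaged 157 CPM in Slc1a3+ cells against 85.0 CPM in Dlx1+ cells (0.89, adjusted p = 0.0263), and Sod1 218 against 120 CPM (0.86, adjusted p = 0.0498). Prdx1 and Txn1, which remove peroxide and reduce disulphides, rose by 0.86 and 0.82. Steap4, a metalloreductase, fell to 13.8 CPM against 47.8 CPM (-1.79, adjusted p = 0.00293), Slc39a8 to 6.52 against 18.3 CPM (-1.49, adjusted p = 0.0137), and Jun to 24.1 against 79.2 CPM (-1.72, adjusted p = 0.00557). Over all 10 comparisons of lines, 26 calls divided into 12 higher and 14 lower, and scaling by library totals gave 6 higher and 22 lower. Among labelled cells the shares of all genes passing were 0.16% (back Slc1a3+ against Aspm+), 0.532% (back K14+), 0.0915% (tail Aspm+ against Dlx1+) and 0.492% (tail Slc1a3+ against Aspm+). Among totals they were 0.0114% and 2.13% for the same back comparisons, and 1.96%, 0.0343% and 0.00572% in tail for Slc1a3 against Dlx1, Aspm against Dlx1 and Slc1a3 against Aspm lines. Of the 26 calls only that of Steap4 in Slc1a3+ against Dlx1+ cells held under every alternative run.

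Across the 28 libraries, after the mean of each site was subtracted, Mt1 and Mt2 correlated at r = 0.868, Mt1 and Mt4 at 0.801, and Mt2 and Mt4 at 0.824. After the mean of each group was subtracted the values were 0.692, 0.494 and 0.700. The libraries share lines, sites and sorts, so these are descriptions. The genes most like Mt1 after subtraction of site means were Slc25a3, the mitochondrial phosphate carrier (r = 0.889), Nhp2 (0.883), Chmp1a (0.870), Rps2 (0.863) and Prdx5 (0.862). Those most like Mt2 were Arpc1a (0.891), Cd81 (0.882), Tmbim4 (0.882), Ly6d (0.878) and Tmem251 (0.866). Mt4 was most like Fabp5, a fatty acid binding protein of epidermis (0.896), then H2-Eb1 (0.836), H2-Aa (0.821), Calm4, a calmodulin-like gene of epidermis (0.818), and Atp6v0c (0.802). H2-Eb1 and H2-Aa are antigen presentation genes known from Langerhans cells, and H2-Aa is one of the Langerhans cell markers above. The lists depended on the measure. With group means subtracted none of the 5 genes was shared for any member, and with ranks 2, 0 and 3 of 5 were shared for Mt1, Mt2 and Mt4. Fabp5 stayed close to Mt4 without the library that stood apart (0.883) and by rank (0.907). With group means subtracted its r fell to 0.786, below that of H2-Aa (0.807).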

How the data were processed

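Poly(A) RNA of sorted epidermal cells was sequenced with a kit that does not keep strand, per the labels. The values are whole-number counts per Ensembl gene, used as deposited by the authors. Per the submitters' processing notes, Trim Galore 0.6.0, cutadapt, FastQC, STAR 2.7.0e and DESeq2 1.26.0 were used, with GRCm38 (mm10). The counting program and its annotation and strand setting are not given in the sources used here. All 55536 identifiers matched GENCODE M21, and 33440 had a count.

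edgeR 4.0.16 (R 4.3.3, limma 3.58.1) was fitted to all 28 libraries with 1 mean for each of 12 groups (TMM scaling, filterByExpr with a minimum count of 10, 17493 genes, 16 residual degrees of freedom, biological coefficient of variation 0.280). List genes were tested with the quasi-likelihood F test and Benjamini-Hochberg adjustment over all genes at 0.05. log2 CPM used a prior count of 2. The fits were tested on simulated data with 50 changed genes per fold. For tail Slc1a3+ cells against their total, 4 were recovered at 1.5-fold, 20 at 2-fold and 46 at 4-fold. For tail against back total IFE the numbers were 24, 39 and 49. The absence of a call between labelled cells and their total is therefore not the absence of a difference. Python 3.11.15, numpy 2.4.6, pandas 2.3.3 and matplotlib 3.10.9 were used for summaries and figures.

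The members and gene lists were chosen with earlier results of these data known. The named genes were the 4 members, up to 5 genes of each list by lowest p among those that passed without overlap, and the 5 genes most correlated with Mt1, Mt2 and Mt4. Other genes are named where a count or call of 5 or fewer is spelled out, after their values were seen. Labelled and total libraries of the same line, site and replicate number deviated together in all 14 pairs (r 0.181 to 0.689 over 10374 genes) and were taken as pairs, although the labels do not state it. Where a sort has 2 libraries, both pairs give the same r by construction, so the 14 values are not independent. They do not show whether a pair shares an animal. Alternatives were DESeq2 size factors and test (DESeq2 1.42.0), library totals, no filter on low counts, only the compared groups, a replicate block and leaving out each library in turn.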

Additional observations from a re-analysis of the deposited data

How the results depend on the processing

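Of the recomputed differences of Mt1, Mt2 and Mt4, 583 moved by less than the spread between replicates and 20 by more. The differences of Mt4 in tail and all tail against back differences kept their sign. With library totals, Mt1 in tail Slc1a3+ against Aspm+ cells was 0.89, and Slc1a3 against Aspm line tail totals were 0.48 (Mt1) and 0.18 (Mt2). The other 17 moved when 1 library was left out. For Mt1 the ranges were -0.21 to 0.12 (back K14+ against total), 0.38 to 0.49 (tail Slc1a3+ against total), -0.067 to 0.125 (tail Aspm+ against total), 1.11 to 1.76 (tail Slc1a3+ against Dlx1+), 0.11 to 0.75 (Aspm+ against Dlx1+), 0.91 to 1.10 (Slc1a3+ against Aspm+), and for tail totals 1.03 to 1.60 (Slc1a3 against Dlx1), 0.45 to 1.01 (Aspm against Dlx1) and 0.53 to 0.65 (Slc1a3 against Aspm). For Mt2 they were -0.12 to 0.16 (tail Aspm+ against total), 0.89 to 1.64 (Slc1a3+ against Dlx1+), and for tail totals 0.86 to 1.42 (Slc1a3 against Dlx1) and 0.57 to 1.13 (Aspm against Dlx1). For Mt4 the Aspm against Dlx1 tail totals ranged from 0.73 to 1.17.

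List calls for labelled cells against total numbered 1, and 3 with no filter on low counts, 5 with the replicate block, 2 with DESeq2's test and 0 to 2 with 1 library left out. Calls between lines within a site numbered 26, and 83 with no filter, 48 with only the compared groups, 57 with DESeq2's test and 10 to 38 with 1 library left out. Tail against back calls numbered 121, and 111 to 126 under the other settings. The block moved no member difference by more than 0.13. The cause of these changes was not tested. Groups of 2 or 3 libraries limit every comparison, and Mt3 is limited by its low counts.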

Other observations

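The genes beside the cluster were not as far apart between the sites as Mt4. Bbs2, on the - strand at 94067954 to 94098928 of chromosome 8, measured 30.4 to 43.1 CPM in tail and 12.6 to 31.5 CPM in back (0.43 in total IFE, edgeR adjusted p = 0.0191). Nup93, on the + strand at 94214564 to 94317227, measured 60.4 to 83.9 CPM in tail and 50.2 to 75.1 CPM in back (0.31, edgeR adjusted p = 0.0336). Both ranges overlapped between the sites.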
